A study of Mus musculus with 32 samples.

Results

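The tumour suppressor p53, encoded in the mouse by Trp53, was examined together with 9 genes of its circuit in 32 primary melanomas, 8 from each of 4 groups: Ecad male, Ecad female, ΔEcad male and ΔEcad female. The 10 genes were Trp53, its inhibitors Mdm2 and Mdm4, and the direct targets Cdkn1a, Ccng1, Eda2r, Phlda3, Zmat3, Sesn1 and Trp53inp1 (Mdm2 is itself a target, which makes 8 targets), and they were found by matching each Ensembl identifier to its symbol, 10 of 50600 genes in the tables. All 10 passed the filter on low counts, as did 17717 genes in all. The mice carried an NRAS oncogene under the tyrosinase promoter, which is active in the melanocyte lineage, and had lost 1 copy of Cdkn2a (Tyr::NrasQ61K; Cdkn2a-/+), so every group, the controls included, shared the oncogene and the loss of that copy. All carried floxed Cdh1 (Cdh1F/F), the gene for E-cadherin. The ΔEcad mice also carried a Cre under the tyrosinase promoter according to the methods of the study, although their label has Tyr::NRAS/° in that place. The mice were on a C57BL/6J background, and their ages were not given in the sources used here. The labels number the tumours but do not say whether each came from its own mouse, so p-values measure the spread between these tumours.

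p53 is a transcription factor that is kept scarce by MDM2, an E3 ubiquitin ligase that marks it for degradation, and held inactive by the related protein MDM4. DNA damage releases p53 from both, and an activated oncogene does so through ARF, a product of the Cdkn2a locus that binds MDM2. Active p53 then raises a set of genes that stop the cell cycle, repair DNA, limit growth signalling or kill the cell, and it raises Mdm2, which closes a feedback loop. In melanoma p53 itself is often left intact while the Cdkn2a locus is lost. Because p53 is controlled mainly as a protein, the messenger RNA of its targets is a common readout of its activity, and the messenger RNA of Trp53 is not.

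Total counts ranged from 24036333 to 63923086 per tumour. Cdh1 itself did not separate the genotypes: it ranged from 25 to 282 TPM (transcript level scaled to length and to library size) in Ecad males, from 2.16 to 151 in Ecad females, and with ΔEcad from 0.79 to 65.2 in males and from 0.17 to 143 in females. In all, 5 tumours, written with the number of their label, stood apart. ΔEcad male 2 had 0 TPM of the Y-linked gene Ddx3y and 6.41 TPM of Xist, against its label, and ΔEcad female 1 had 0.37 TPM of Ddx3y. ΔEcad male 7 had a summed level of 31.9 TPM over 9 melanocytic markers, against at least 5891 TPM in the other 31 tumours. ΔEcad female 3 had 0 TPM summed over 5 markers of red blood cells and the lowest levels of macrophage and endothelial markers. Ecad female 3 had 8313 TPM of Bpifa2, a salivary protein, against at most 26.6 TPM elsewhere. The melanocytic markers were otherwise present throughout, and in bulk tumours fewer cells of a type and less RNA per cell cannot be told apart.

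The DNA just before the transcription start is shown for a few of the 10 genes, because a p53 binding site there ties a gene to the factor directly. A p53 site is built of half-sites of 10 bases, and a full element has a pair of them with at most 13 bases between. Sequences were those of RefSeq on GRCm38.p6, with the 250 bases before each annotated start read for exact matches to the p53 half-site, whose pattern reads the same on both strands. Of the 10 genes, 8 had a promoter in this collection; Zmat3 and Trp53inp1 did not. In the lines below, capitals mark half-sites and each sequence runs 5′ to 3′ along the strand of its gene.
Cdkn1a, chr17:29090729-29090978, plus strand: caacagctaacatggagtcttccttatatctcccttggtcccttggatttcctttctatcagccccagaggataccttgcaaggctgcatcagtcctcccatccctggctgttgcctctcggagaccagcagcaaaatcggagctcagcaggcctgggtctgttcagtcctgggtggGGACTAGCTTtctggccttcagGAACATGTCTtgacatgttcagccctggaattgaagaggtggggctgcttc
Ccng1, chr11:40755287-40755536, minus strand: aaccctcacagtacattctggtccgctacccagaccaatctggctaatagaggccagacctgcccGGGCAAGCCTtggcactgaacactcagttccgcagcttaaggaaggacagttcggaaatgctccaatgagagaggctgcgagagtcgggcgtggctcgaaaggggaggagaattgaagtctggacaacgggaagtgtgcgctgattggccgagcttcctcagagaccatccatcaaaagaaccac
Mdm2, chr10:117710759-117711008, minus strand: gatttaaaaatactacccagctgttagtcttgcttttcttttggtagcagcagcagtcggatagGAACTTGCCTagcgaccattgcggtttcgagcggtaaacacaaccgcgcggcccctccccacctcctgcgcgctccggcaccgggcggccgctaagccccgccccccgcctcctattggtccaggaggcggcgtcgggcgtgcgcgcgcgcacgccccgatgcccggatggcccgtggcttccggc
Eda2r, chrX:97377210-97377459, minus strand: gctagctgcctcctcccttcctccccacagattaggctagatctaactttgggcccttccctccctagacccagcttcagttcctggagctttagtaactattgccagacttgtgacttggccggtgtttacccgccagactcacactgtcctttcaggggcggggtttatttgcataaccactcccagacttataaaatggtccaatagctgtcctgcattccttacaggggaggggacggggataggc
Cdkn1a held 2 half-sites, the first beginning 73 bases and the second 51 bases before its upstream start. They lay 12 bases apart and so made a full element by the rule above. The 10 bases right after the second half-site missed the pattern only at their first base and were not marked. The window before the other, downstream start of Cdkn1a held none. Ccng1 held 1 half-site beginning 185 bases before its start, and Mdm2 held 1 beginning 186 bases before. Trp53 and 1 of the 2 starts of Sesn1 also held 1 each, and Eda2r, Phlda3 and Mdm4 held none in this window. A half-site was found in 5 of these 8 genes, in 7 of 30 other p53-activated genes with a promoter, and in 8.2% of all 27025 genes, and a full element in 0.0666% of them. A match describes letters and not binding, and many known p53 elements lie in introns or farther upstream.

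Trp53 (ENSMUSG00000059552, chr11:69580359-69591873, plus strand) had a median of 75.4 TPM in Ecad males (lowest 29.5, highest 104) and 65.9 in Ecad females (7.10 to 104), beside 54.9 in males (11.8 to 110) and 80.2 in females (56.7 to 117) with ΔEcad. The groups overlapped, and in 3 of them a single tumour lay well below the other 7. These were Ecad male 4 at 29.5 TPM, Ecad female 3 at 7.10 TPM and ΔEcad male 1 at 11.8 TPM, the last 2 backed by 608 and 687 counts. The processed pseudogene Trp53-ps, which could take reads from Trp53, had 0 or 1 count in every tumour.

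Mdm2 (ENSMUSG00000020184, chr10:117688875-117710758, minus strand) was the steadiest of the 10. Its median was 51.8 TPM in Ecad males (26.8 to 74.5) and 41.4 in Ecad females (29.4 to 76.2), beside 38.9 in males (20.6 to 76.7) and 43.5 in females (31.7 to 64.7) with ΔEcad. Within groups the SD of its log2 CPM (counts scaled to library size with TMM, the trimmed mean of M values) was 0.38, lower than that of all but 3.92% of the genes tested, whose median SD was 0.86. Mdm4 (ENSMUSG00000054387, chr1:132959484-133030561, minus strand) varied more, with an SD of 0.73. It had a median of 28.04 TPM in Ecad males (8.41 to 73.2) and 21.8 in Ecad females (9.71 to 41.5), beside 12.9 in males (4.12 to 32.6) and 19.1 in females (8.66 to 36.4) with ΔEcad. The highest levels of Mdm4 were thus in Ecad males and the lowest in ΔEcad males, with overlap of all 4 groups. Its pseudogene Mdm4-ps had at most 3 counts.

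Of the targets, Cdkn1a (ENSMUSG00000023067, chr17:29090976-29100727, plus strand) encodes p21, the inhibitor of cyclin-dependent kinases through which p53 arrests the cycle. Its median was 179.8 TPM in Ecad males (128 to 451) and 176 in Ecad females (117 to 420), beside 222 in males (73.8 to 466) and 247 in females (163 to 373) with ΔEcad. An exon of Cdkn1a overlaps a gene on the opposite strand, and since the strand setting of the counting is not given in the sources used here, its level is uncertain to that extent. Ccng1 (ENSMUSG00000020326, chr11:40748552-40755311, minus strand), which encodes cyclin G1, an early p53 target that recruits a phosphatase to MDM2, had a median of 62.1 TPM in Ecad males (43.9 to 102) and 63.4 in Ecad females (37.6 to 170.1), beside 67.6 in males (20.5 to 161) and 93.0 in females (65.8 to 208) with ΔEcad. Every ΔEcad female tumour was above the median of the Ecad females, and the ranges overlapped.

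Eda2r (ENSMUSG00000034457, chrX:97333840-97377216, minus strand), an X-linked receptor of the TNF receptor family for ectodysplasin A2, had the lowest levels of the 10 and the widest spread. Its median was 1.88 TPM in Ecad males (0.87 to 4.57) and 2.29 in Ecad females (0.95 to 13.7), beside 2.27 in males (0.16 to 6.15) and 4.44 in females (2.22 to 19.4) with ΔEcad. The lowest value, in ΔEcad male 8, rested on 12 counts, and the highest was in ΔEcad female 3. Phlda3 (ENSMUSG00000041801, chr1:135766119-135769136, plus strand), which encodes an inhibitor of AKT signalling, was the most abundant of the 10 by mean level. Its median was 271 TPM in Ecad males (91.2 to 605) and 187 in Ecad females (87.7 to 629), beside 219.7 in males (132 to 397) and 290.2 in females (137 to 859) with ΔEcad. The Ecad females fell into 3 tumours between 481 and 629 TPM and 5 at 223 TPM or below.

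Zmat3 (ENSMUSG00000027663, chr3:32334792-32366014, minus strand), a zinc finger protein that binds RNA and affects splicing, stayed below 20 TPM in both Ecad groups and reached higher in 1 tumour of each ΔEcad group. Its median was 11.6 TPM in Ecad males (7.95 to 14.4) and 14.3 in Ecad females (8.77 to 19.7), beside 11.7 in males (4.92 to 33.7) and 13.2 in females (8.83 to 34.3) with ΔEcad. Sesn1 (ENSMUSG00000038332, chr10:41809935-41908424, plus strand), a sestrin that restrains mTORC1, had a median of 25.4 TPM in Ecad males (9 to 49.3) and 18.7 in Ecad females (8.35 to 50.8), beside 21.2 in males (7.18 to 33.8) and 21.9 in females (4.69 to 43.9) with ΔEcad. Trp53inp1 (ENSMUSG00000028211, chr4:11156431-11174379, plus strand), a nuclear protein that helps p53 phosphorylation and also acts in autophagy, had a median of 17.4 TPM in Ecad males (5.56 to 33.9) and 19.4 in Ecad females (7.29 to 73.8), beside 9.13 in males (3.28 to 49.3) and 20.4 in females (8.12 to 41.3) with ΔEcad. In ΔEcad males, ΔEcad male 4 at 49.3 TPM and ΔEcad male 5 at 42.3 TPM stood above the other 6, which were at 9.45 TPM or below.

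**Figure D1:**
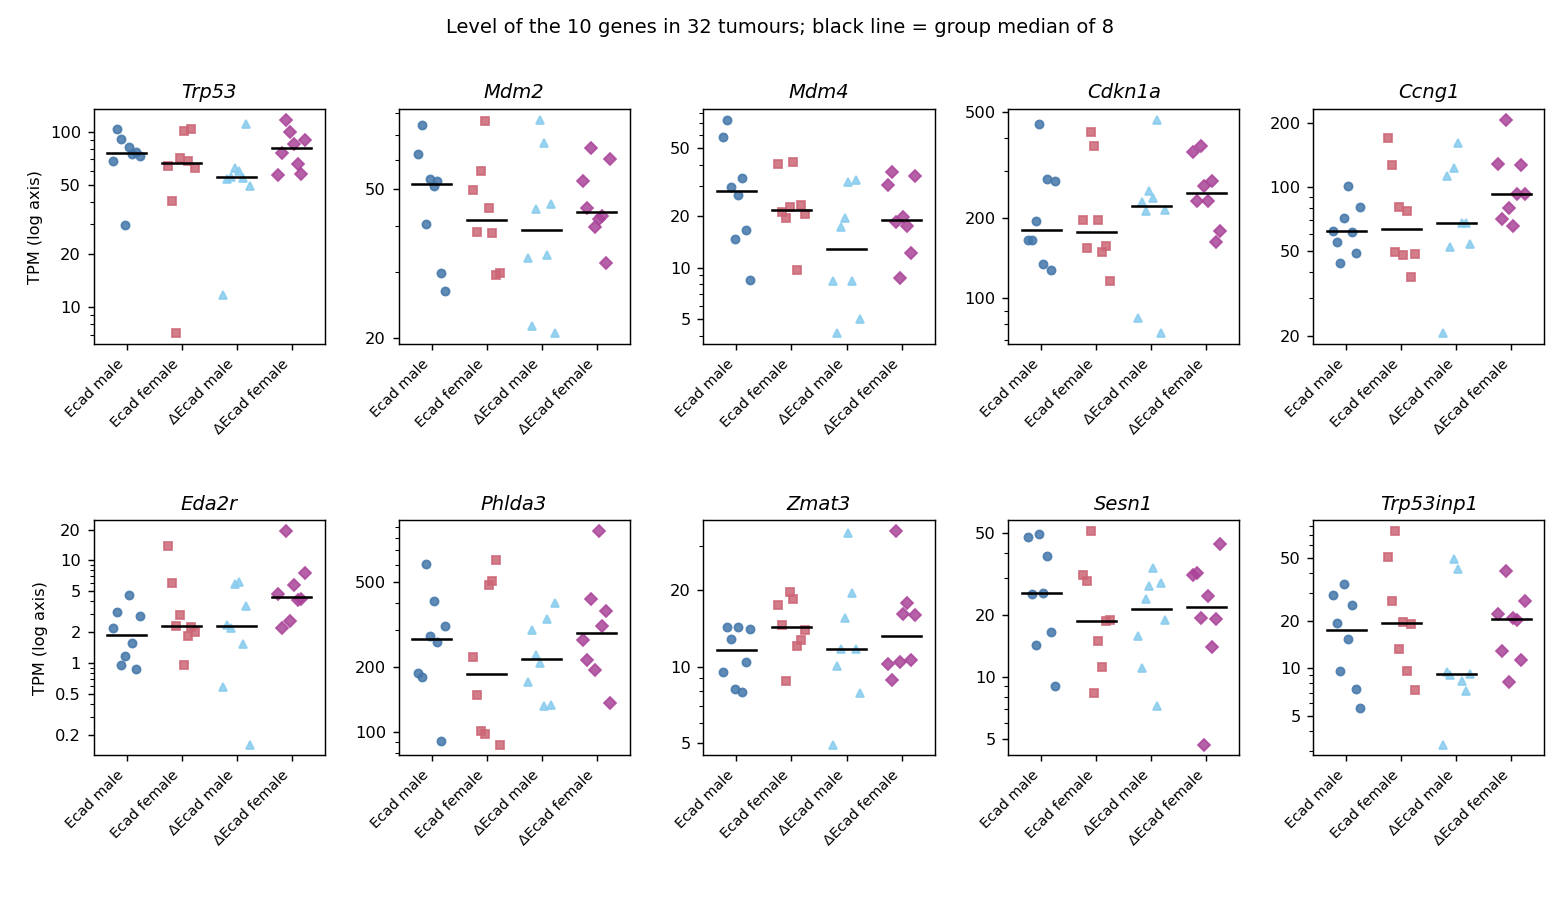
Level of each of the 10 genes in 32 tumours, in TPM on a log axis; points are tumours, with one marker shape and colour for each group of 8, and the black line is the group median. For every gene the groups overlap, and Trp53 shows 3 tumours, at 7.10, 11.8 and 29.5 TPM, below the rest of their groups.

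The design asks whether loss of E-cadherin or the sex of the mouse changed the p53 circuit. No member passed the test in any of 7 comparisons (edgeR quasi-likelihood test, calls needed a p under 0.05 after Benjamini-Hochberg adjustment, with the log2 fold change beyond 1 in size), and their adjusted p-values ran from 0.416 to 0.998. DESeq2 and 2 limma fits also called 0 of 10 in every comparison. In ΔEcad against Ecad females 0 of 10 members passed, where 1.2% of all genes did. The same count of 0 stood beside a background of 0% for ΔEcad against Ecad in males, 0.0508% for females against males in Ecad, 0.0395% for females against males in ΔEcad and 0% for the interaction of genotype and sex. It was 0.0113% for the genotypes averaged over the sexes and 0.0734% for the sexes averaged over the genotypes. At backgrounds this low a count of 0 among 10 genes is close to that of genes at large.

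At an unadjusted p under 0.05, 5 of 70 values stood out by edgeR. The 7 comparisons draw on the same 4 groups, so the values are not independent, and these 5 belong to Mdm4, Ccng1 and Eda2r only. No member reached it in ΔEcad against Ecad females, where 15.3% of all genes did, nor in females against males in Ecad (16%), nor in the interaction (17.7%). Mdm4 did so in males, with a log2 fold change of -0.88 ± 0.35 (SE, ΔEcad against Ecad, edgeR adjusted p = 0.434), where 10.2% of all genes reached it. Averaged over the sexes (background 9.88%), Mdm4 was at -0.55 ± 0.25 and Ccng1 at 0.46 ± 0.20, both with an adjusted p of 0.471 by edgeR. Eda2r had the largest difference between sexes, with a log2 fold change of 1.09 ± 0.51 for females against males in ΔEcad (edgeR adjusted p = 0.557, background 8.81%) and 0.98 ± 0.36 averaged over the genotypes (edgeR adjusted p = 0.714, background 6.85%). These 5 differences kept their direction in every alternative.

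The intervals say how much change these tumours could have hidden. For Mdm2 the 95% interval of the log2 difference ran from -0.41 to 0.40 between female genotypes and from -0.39 to 0.42 between male genotypes. For Trp53 it ran from -0.35 to 0.92 in females and from -0.85 to 0.42 in males, and for Cdkn1a from -0.56 to 0.87 in females and from -0.51 to 0.92 in males. Over the 4 comparisons of single groups, 23 of 40 intervals lay within 1 log2 unit of 0 on both sides and 2 did not include 0, those of Mdm4 between male genotypes and of Eda2r between ΔEcad sexes. Intervals were widest for Eda2r (-0.39 to 1.68 between female genotypes), Phlda3 (-0.70 to 1.24) and Trp53inp1 (-1.53 to 0.38). The median log2 fold change of the 10 members between female genotypes was 0.09, with 6 above and 4 below 0, beside -0.02 for all genes. Between male genotypes it was 0.05, beside 0.11 for all genes.

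**Figure D2:**
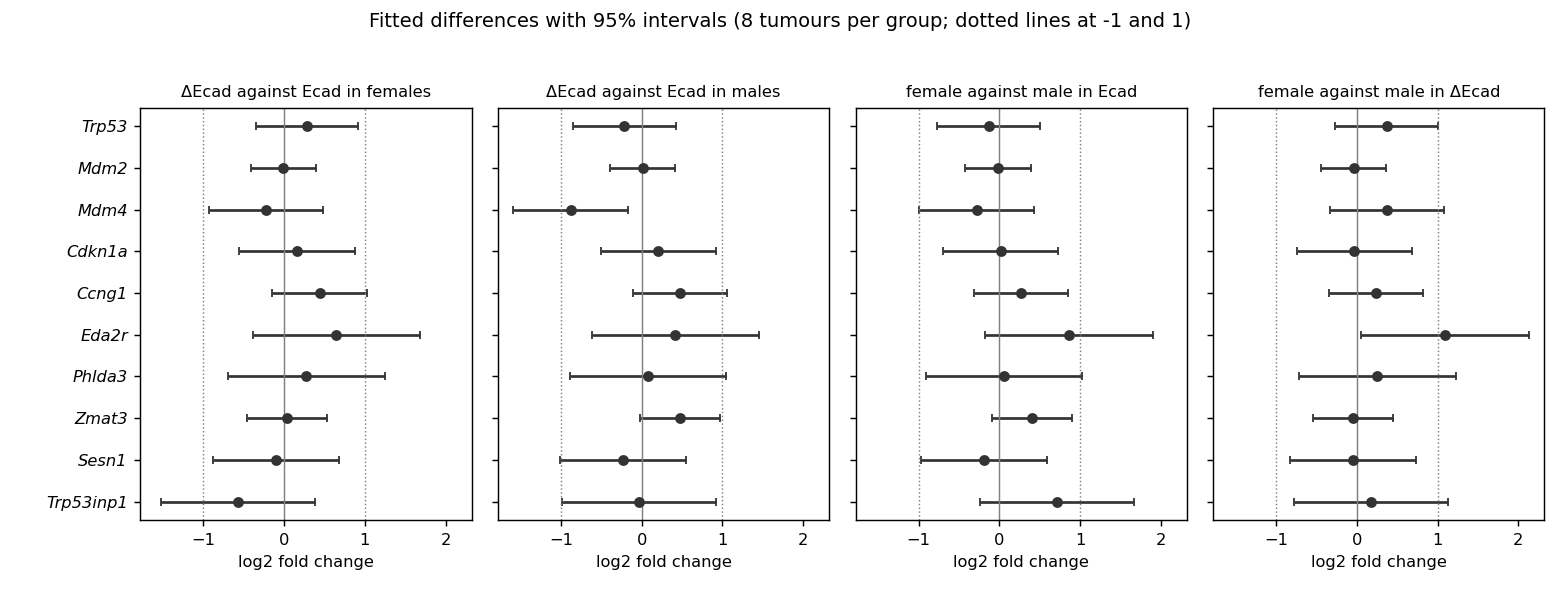
Fitted log2 fold changes of the 10 genes (points) with 95% intervals (bars) in 4 comparisons of 8 against 8 tumours; the solid line is 0 and dotted lines mark -1 and 1. The intervals of Mdm4 between male genotypes (-1.59 to -0.17) and of Eda2r between sexes in ΔEcad (0.05 to 2.14) are the 2 that do not include 0, and neither passed after adjustment.

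Within groups, single tumours stood well away from the rest for several members. Ranks below are by TMM-scaled CPM, and the rank in TPM is given where it differs much. Ecad female 3, with the lowest Trp53 of the series, had the highest Mdm2, Sesn1 and Trp53inp1 and ranked 2nd for Cdkn1a among the 32 tumours, although in TPM its Mdm2 ranked 8th. Ecad male 4, at rank 30 for Trp53, ranked 2nd for Sesn1, 3rd for Cdkn1a and 4th for Trp53inp1. Other targets were low in the same tumours: Ecad female 3 ranked 25th for Phlda3, 24th for Zmat3 and 21st for Ccng1, and Ecad male 4 ranked 29th for Zmat3 and 27th for Eda2r. ΔEcad male 1, the other tumour with low Trp53, ranked 31st for Ccng1, 30th for Trp53inp1 and 28th for Eda2r, but 2nd for Mdm2 and 6th for Sesn1. In that tumour the scale decided the rank: its TMM factor of 0.696 was the lowest of the 32, and in TPM its Mdm2 ranked 25th and its Ccng1, Zmat3 and Trp53inp1 last. The share of counts on mitochondrial genes in ΔEcad male 1, 0.256%, was also the lowest of the 32. It was not counted among the tumours that stood apart.

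At the other end, ΔEcad female 3 had the highest Ccng1 and Eda2r and ranked 2nd for Zmat3 and 3rd for Trp53, with Mdm2 at rank 9 and Sesn1 at rank 23. It is one of the tumours that stood apart, and its Cdkn2a level of 94.9 TPM was below only the 101 TPM of Ecad male 1. ΔEcad male 5 had the highest Zmat3 and ranked 5th for Ccng1, Eda2r and Trp53inp1. Ecad female 1 ranked 2nd for Eda2r and Trp53inp1 and 4th for Ccng1. Ecad male 7 was low throughout, ranking between 22nd and 32nd for all 8 targets on both scales, with Trp53 at rank 11. ΔEcad female 5 ranked between 1st (Phlda3) and 17th (Ccng1) for the 8 targets, and between 1st and 20th in TPM.

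**Figure D3:**
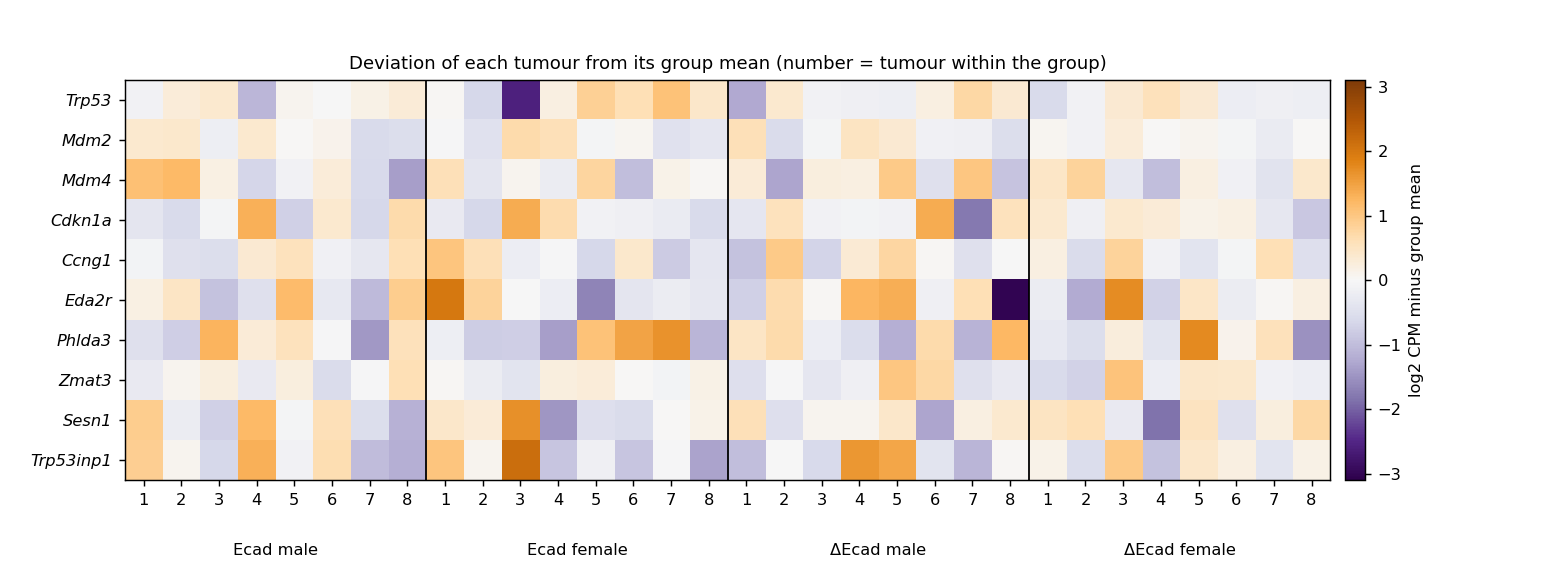
Deviation of each tumour from the mean of its group, in log2 CPM, for the 10 genes (rows) and 32 tumours (columns, numbered within each group). The darkest cells are Trp53 in Ecad female 3 and Eda2r in ΔEcad male 8, and most columns hold targets on both sides of their group mean, while all 8 targets of Ecad male 7 are below theirs.

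Whether the targets rose and fell together was asked over the 32 tumours, after removing group means from log2 CPM. The 28 pairs of the 8 targets had a median Pearson r of 0.19, with a jackknife SE of 0.10 over tumours. Of these pairs 18 were positive and 10 negative, between -0.46 and 0.59. Over all 45 pairs of the 10 genes, 14 had a permutation p under 0.05 (two-sided, tumours permuted within groups, 100000 draws), and 3 had a Benjamini-Hochberg adjusted p under 0.05. The same figures were not taken for pairs of genes at large, so they do not show co-variation particular to these genes. On the log2(TPM + 1) scale, which has no TMM scaling, the median was 0.30 and 13 of 45 pairs passed, so the choice of scale moved this count by more than any other setting. Of the 3 pairs below, Trp53 with Sesn1 did not pass on that scale. Without the 5 tumours that stood apart the median r was 0.07 and 0 of 45 pairs passed.

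Ccng1 and Eda2r rose and fell together. Pearson r was 0.58 (permutation p = 0.00127, adjusted p = 0.019) and Spearman rho was 0.57 (adjusted permutation p = 0.0205). With the 2 most extreme tumours for Ccng1 left out, r was 0.50. Within groups of 8 tumours it was 0.64 in Ecad males and 0.81 in Ecad females, beside 0.38 in males and 0.61 in females with ΔEcad. Without the 5 tumours that stood apart r was 0.56, with an adjusted permutation p of 0.125.

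Sesn1 and Trp53inp1 also rose and fell together, with r = 0.59 (permutation p = 0.00057, adjusted p = 0.0128) and rho = 0.54 (adjusted permutation p = 0.0252). With the 2 most extreme tumours for Sesn1 left out, r was 0.48. Within groups r was 0.97 in Ecad males and 0.80 in Ecad females, beside 0.10 in males and 0.37 in females with ΔEcad. The values were higher in both Ecad groups, and that difference was not tested. Without the 5 tumours r was 0.56 and the adjusted permutation p was 0.105.

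Trp53 and Sesn1 moved in opposite directions, with r = -0.61 (permutation p = 0.00022, adjusted p = 0.0099) and rho = -0.61 (adjusted permutation p = 0.0103). With Ecad female 3 and ΔEcad male 1, the 2 most extreme tumours for Trp53, left out, r was -0.50. It was negative within each group, at -0.80 in Ecad males, -0.74 in Ecad females, and -0.39 and -0.60 in males and females with ΔEcad. On the log2(TPM + 1) scale r was -0.31, with an adjusted permutation p of 0.216. No other pair of Trp53 passed. With Mdm2 it had r = -0.51 (adjusted permutation p = 0.0739), which was -0.29 without those same 2 tumours and 0.40 within ΔEcad females, and with Trp53inp1 r = -0.50 (adjusted permutation p = 0.0739). With Zmat3 r was 0.33 (adjusted permutation p = 0.0965), and with Ccng1 and Eda2r it was -0.05 and -0.06.

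None of these 3 pairs passed once Ecad female 3 was left out, when each had an adjusted permutation p of 0.0747, and Ccng1 with Eda2r also missed the threshold without Ecad female 1, Ecad female 5 or ΔEcad female 3. Zmat3 and Sesn1 had r = -0.46 (adjusted permutation p = 0.0739) and rho = -0.59 (adjusted permutation p = 0.0148), so they passed by rank only. Mdm4 had r = -0.47 with Cdkn1a and 0.45 with Sesn1, both with an adjusted permutation p of 0.0739. Mdm2 had r = 0.50 with Trp53inp1, also at 0.0739, and 0.21 with Cdkn1a. Phlda3 had no pair with an adjusted p under 0.1, its r values lying between -0.33 and 0.30.

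**Figure D4:**
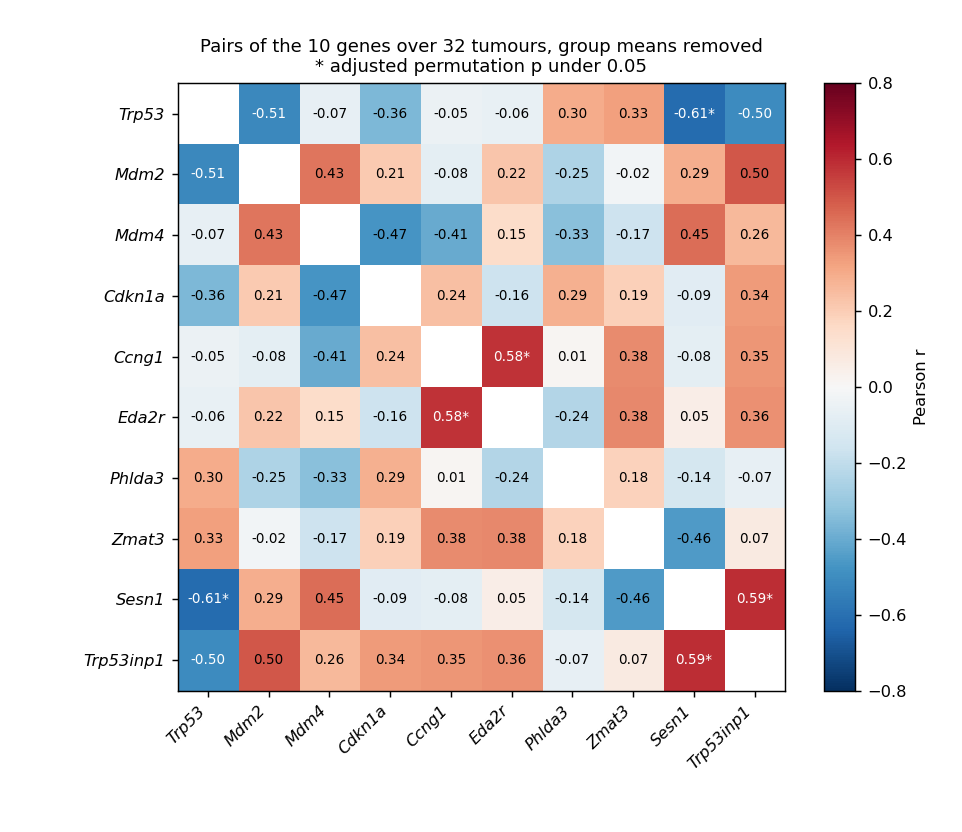
Pearson r of log2 CPM over 32 tumours, group means removed, for all 45 pairs of the 10 genes; red is positive, blue negative, and stars mark an adjusted permutation p under 0.05. The marked pairs are Trp53 with Sesn1 (-0.61), Sesn1 with Trp53inp1 (0.59) and Ccng1 with Eda2r (0.58).

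**Figure D5:**
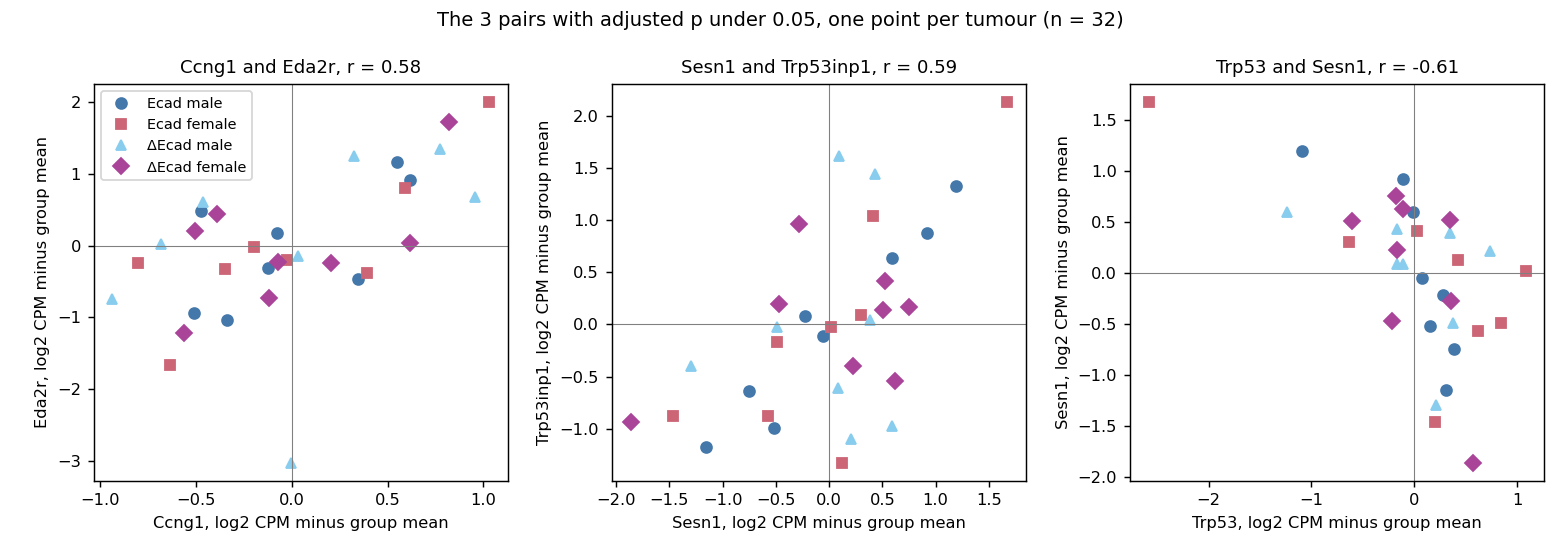
The 3 marked pairs, with one point per tumour and both axes in log2 CPM minus the group mean; marker shapes and colours give the 4 groups. Ecad female 3 is the point at the far upper left of the plot of Trp53 against Sesn1 and at the upper right of that of Sesn1 against Trp53inp1.

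Composition of the tumours moved with several members (Pearson r with the mean log2 CPM of fixed marker lists, 32 tumours, group means removed, given as description). Mdm4 had r = -0.48 with the 9 melanocytic markers. Cdkn1a had r = 0.52 with them, which rested on ΔEcad male 7, the tumour nearly without these markers: left out, r was 0.18. Sesn1 had r = 0.45 and Trp53 r = -0.46 with the 13 keratinocyte markers, and Eda2r had r = -0.56 with the red blood cell markers. With 18 cell cycle genes Sesn1 had r = -0.56 and Trp53 r = 0.38. Mdm4 had r = 0.54 and Cdkn1a -0.50 with the percent of counts on non-coding genes outside the mitochondria, which ranged from 0.693% to 2.2%. With 5 marker scores (keratinocyte, melanocytic, fibroblast, macrophage and T cell) regressed out, the 3 pairs stood at r = 0.66 for Ccng1 with Eda2r, 0.62 for Sesn1 with Trp53inp1 and -0.64 for Trp53 with Sesn1, and all 3 still passed. The median r of the target pairs was then 0.19, and after regressing out the non-coding share it was 0.07. The 5 scores left out the cell cycle genes and the red blood cell markers, whose part in the pairs was not tested.

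Ranking all 17716 other tested genes by r with each member places these pairs. Eda2r ranked 78th among the partners of Ccng1, and Ccng1 ranked 108th among those of Eda2r, both within the top 1%. Trp53inp1 ranked 308th for Sesn1 and 403rd for Mdm2. For the negative pair, counted from the highest r, Sesn1 ranked 17608th for Trp53 and Trp53 ranked 17412th for Sesn1. The genes most alike to each member were mostly outside the circuit. Trp53 was closest to Tmem39b (r = 0.86), Brat1 and Gtf2h3 (both 0.85), and Mdm2 to Crebbp (0.78), a coactivator of p53, Kdm3a and Ythdc1 (both 0.75). Mdm4 was closest to Ccnt2 (0.92), Gm12940 (0.91) and Gm37206 (0.87), and Cdkn1a to Smpdl3a (0.70), Pim3 and Proscos (both 0.69). For Ccng1 these were Kpna1 (0.72), D6Wsu163e (0.68) and Gm2223 (0.67), and for Eda2r Dzip3, Sec24a and Ptcd3 (all 0.68). Phlda3 was closest to Srebf1 (0.81), a regulator of lipid synthesis, D830050J10Rik (0.80) and Slc41a3 (0.79), and Zmat3 to Zfp697 (0.74), Gbf1 (0.73) and Gcn1l1 (0.67). Sesn1 was closest to Map3k5 (0.84), Rgsl1 (0.82) and Vwa3b (0.79), and Trp53inp1 to Zfp800 (0.84), Inpp1 and Fcho2 (both 0.81).

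A single readout was formed as the mean of the 8 standardised targets. The target that tracked the mean of the other 7 best was Trp53inp1 (r = 0.68, rank 3 of 17710 genes), followed by Ccng1 (0.41, rank 827) and Eda2r (0.35, rank 1387). Sesn1 (0.05) and Phlda3 (-0.05) did not track it. Trp53 itself had r = -0.38 with the readout. Of 38 other genes known to be raised by p53, 25 were positively related to it, with a median r of 0.06 beside -0.01 for all genes, and 2 were among the top 1% (177 genes), or 5.26% of the list. These 2 were Rrm2b (0.69), a ribonucleotide reductase subunit that p53 raises for DNA repair, and Trp53cor1 (0.59), a non-coding RNA next to Cdkn1a. The genes with the highest r that were not members were Slc19a2 (0.84), a thiamine transporter, Fam126b (0.71), Bmt2, Jak2, Zfp800 and Rrm2b (all 0.69), Fnip1 and Trim23 (both 0.68), and Slc25a16 and Avl9 (both 0.67). Of 18 cell cycle genes that p21 lowers, 17 were negatively related to the readout. The median r of the 18 was -0.26, beside -0.01 for all genes, with the lowest value for Plk1 (-0.39). Single targets differed in sign with the mean of these 18 genes: Mdm2 had r = -0.29 and Cdkn1a -0.23, but Ccng1 0.23 and Eda2r 0.19. Sesn1, which did not track the readout, was further below 0 with them than Mdm2, as given above. The readout itself had r = 0.40 with the log2 total count.

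Other parts of the pathway were compared between the female genotypes, the comparison with the most calls. Of 38 other p53-activated genes, 0 passed the edgeR test, and 9 had an unadjusted p under 0.05, all 9 higher in ΔEcad, beside 11.2% of all genes that were higher at that level. Among the apoptosis genes the smallest p-values were those of the death receptor Tnfrsf10b (log2 fold change 0.92 ± 0.35, edgeR adjusted p = 0.159), Perp (4.44 ± 1.85, edgeR adjusted p = 0.213) and Bbc3, which encodes PUMA (0.46 ± 0.22, edgeR adjusted p = 0.325). Among growth arrest genes they were Rprm (6.26 ± 1.89, edgeR adjusted p = 0.0705), Sfn (3.65 ± 1.23, edgeR adjusted p = 0.104) and Btg2 (0.85 ± 0.40, edgeR adjusted p = 0.305). The 3 with the smallest p among 5 DNA repair and nucleotide genes were Xpc at -0.34, Ddb2 at 0.62 and Rrm2b at -0.36, all with an edgeR adjusted p of 0.494 or more. Among 15 metabolic and other targets they were Sesn2 at 0.95 ± 0.34, Ak1 at 1.29 ± 0.46 and Dram1 at 1.10 ± 0.45, with edgeR adjusted p-values of 0.128, 0.132 and 0.205. Of 18 cell cycle genes lowered through p21, 0 passed and 0 had an unadjusted p under 0.05, beside 1.2% and 15.3% of all genes, 15 of the 18 log2 fold changes being above 0 with a median of 0.47. The smallest p-values there were those of Cdc20 (0.79 ± 0.50), Rrm2 (1.02 ± 0.69) and Aurka (0.65 ± 0.54).

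Of 19 regulators of p53, 1 passed, where 1.2% of all genes did. Ppp1r13l, which encodes iASPP, an inhibitor of p53 that is abundant in epidermis, had a mean of 38.8 TPM in ΔEcad females against 8.55 TPM in Ecad females, a log2 fold change of 2.11 ± 0.53 (SE, n = 8 per group, edgeR adjusted p = 0.0471), beside means of 35.4 TPM in Ecad males and 13.8 TPM in ΔEcad males. The call held in 21 of 44 alternatives and was lost without the 5 tumours that stood apart (edgeR adjusted p = 0.0815). Trp53bp2 (-0.43 ± 0.20) and Rchy1 (-0.38 ± 0.24) had the next smallest p-values in that list, with edgeR adjusted p-values of 0.30 and 0.511. The p53 relatives Trp63 and Trp73 were at 5.22 ± 1.56 (edgeR adjusted p = 0.0686) and 5.32 ± 1.5 (edgeR adjusted p = 0.0572), and Trp73 turned to -1.24 with the scores named below in the fit. The keratinocyte markers, which include Trp63, Sfn and Perp, had 13 of 13 log2 fold changes above 0 in the same comparison, with 0 of 13 called, and a median summed level of 7212 TPM in ΔEcad females against 8.29 TPM in Ecad females. Of 9 hair follicle markers 7 were called higher and all 9 were above 0, with a median summed level of 93.6 TPM against 0.685 TPM. None of the other marker lists had a call, and all 9 melanocytic markers were below 0. The part of these cells in the p53 lists was not tested beyond the fit that follows. With keratinocyte and melanocytic scores in the fit, the log2 fold change of Ppp1r13l was 0.63 (edgeR adjusted p = 0.759). Cdkn2a, of which all mice had lost 1 copy, was at 0.58 ± 0.43 between female genotypes (edgeR adjusted p = 0.591). Its median was 17.9 TPM in Ecad males (8.11 to 101) and 16.8 in Ecad females (12.8 to 40.4), beside 18.7 in males (7.7 to 32.9) and 21.7 in females (14.1 to 94.9) with ΔEcad. In the other 6 comparisons 0 genes of these lists passed the edgeR test.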

How the data were processed

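Total RNA of 32 primary melanomas was sequenced by the submitters from stranded poly(A) libraries. Per the labels and the methods of the study, reads were aligned with STAR to GRCm38.p5 with GENCODE annotation. The authors deposited raw counts per gene, neither normalized nor filtered, and TPM values per gene, scaled by gene length and library. Identifiers were matched to symbols with GENCODE M21 (50376 of 50600 named).

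Counts were fitted with edgeR 4.0.16 (R 4.3.3; TMM, filterByExpr by group, robust quasi-likelihood test, 1 coefficient per group, 32 tumours), and p-values were adjusted over 17717 genes by the Benjamini-Hochberg method. Levels were read from TPM and co-variation from log2 CPM (prior count 1). The scripts were tested on simulated data. Alternatives used DESeq2 1.42.0 and limma 3.58.1. Genes named were all members, the called or the 3 lowest-p genes of each further list, and the genes most alike by r. The members and lists were chosen with earlier results of these data known. Depth, the total count per tumour, bounds the counting error only.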

Additional observations from a re-analysis of the deposited data

Results flagged for a closer look

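In 4 of 40 combinations of a member and a group, the lowest tumour lay further from the next than Dixon's limit for 8 tumours allows, with gaps taken as a share of the range in log2 CPM. Chance flags about 1 in 20 such groups, and 4 of 40 is 10%. Of the 4, 3 concerned Trp53, with a gap of 0.666 of the range for Ecad male 4 (29.5 TPM), 0.53 for Ecad female 3 (7.10 TPM) and 0.539 for ΔEcad male 1 (11.8 TPM). The fourth was Sesn1 in ΔEcad female 4 (4.69 TPM), with a gap of 0.532. No member was flagged for its highest tumour.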

How the results depend on the processing

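In each comparison 0 of 10 members were called under every alternative that was run: DESeq2, limma voom with quality weights, limma on log2(TPM + 1), other size factors, no filter, no robust estimation, only the tumours compared, the marker scores as covariates, no fold threshold, the replicate block, each tumour left out (0 to 0) and, added after seeing the data, without the 5 tumours that stood apart. The lowest adjusted p of any member over these was 0.0915. Over all genes the count for ΔEcad against Ecad females was 213 and ranged from 1 to 1281, the highest with DESeq2. Other size factors, no filter and DESeq2 also moved the interaction from 0 to between 201 and 1225 calls. Of 3050 member values, 283 changed sign, 282 of them where the main value was under 1 SE. The median of all genes between male genotypes was 0.11 with TMM and -0.16 on log2(TPM + 1), and that of the interaction was -0.16 and 0.18.

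For co-variation, the median r over target pairs was 0.304 on log2(TPM + 1), 0.0709 after the non-coding share was regressed out and 0.0709 without the 5 tumours, and ranged from 0.123 to 0.20 as each tumour was left out. The count of pairs that passed was 13 on log2(TPM + 1), 8 without centring, 5 after the 5 marker scores, 0 without the 5 tumours and 0 to 6 as each tumour was left out. The count of other p53-activated genes in the top 1% was 1 without the 5 tumours and 1 to 3 as each tumour was left out, the lowest without Ecad male 7 or ΔEcad female 3. Cdkn1a with Sesn1 turned from r = -0.09 to 0.51 after the 5 marker scores. Leaving out single tumours, chosen after seeing the data, took r of Cdkn1a with the melanocytic markers from 0.52 to between 0.18 and 0.61. The cause of these shifts was not tested.

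The tumour numbers gave no clear sign of pairing the groups. Of 48 pairs of same-numbered tumours, 18 had a correlation of their deviations over 0.1 and 15 had one under -0.1. The median was 0.0418, in a range from -0.547 to 0.423. Tumours with different numbers were not compared in this way, so these counts have no baseline. With the number as a replicate block 0 members were called, and all genes called between female genotypes fell from 213 to 1. Eda2r had 12 counts in ΔEcad male 8, so its level there carries a large counting error. The total count of that tumour was 30429864. Ecad female 2, with a lower total of 24036333, had 277 counts of Eda2r. Why Eda2r was low in ΔEcad male 8 was not tested.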
